A study of Homo sapiens with 14 samples.

Results

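PKM and 9 other abundant transcripts of glycolysis and lactate metabolism (ENO1, GAPDH, LDHA, LDHB, PGK1, ALDOA, TPI1, PGAM1 and GPI) were followed through low-input RBFOX2-INSCRIBE. The 10 genes were taken from a list of names, chosen when their deep coverage and few reproducible clusters in these data were already known. C-to-U edit sites and edit clusters on the strand and inside the annotated span of one of them were counted as theirs. A site in several overlapping genes was given to 1 gene, which left out 7 of 9 calls in the span of ALDOA and 7 of 43 in that of PGK1 and none in the other 8 genes. The 10 genes held 255 of the 394915 site calls of the 14 libraries, at 243 different cytosines, and 222 of the 208672 clusters. Over the whole series, 16708 genes carried a site on their own strand.

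All 14 libraries came from methanol-fixed HEK293T cells, an immortalized line derived from human embryonic kidney (the labels also write HEK293XT and give the tissue as kidney). RBFOX2 libraries had received a rabbit antibody to RBFOX2 and then APO1-Nb, a purified fusion of the cytidine deaminase APOBEC1 with a nanobody that binds rabbit antibodies. Enzyme-only libraries had received APO1-Nb without antibody, and Buffer-only libraries neither. Total RNA inputs were 1 ng and 100 pg, and either input had 3 RBFOX2 libraries, a single Enzyme-only library and 3 Buffer-only libraries. By the study's methods replicates were separate slides of the same line. Its legends call them technical replicates, and its reporting summary names wells on slides. Tests across them thus measure the spread between slides or wells and libraries, and the single Enzyme-only library of each input is given as a value without a test.

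Glycolysis splits glucose into pyruvate, and lactate dehydrogenase turns pyruvate into lactate in cells that ferment. The mRNAs of these enzymes are among the most abundant in proliferating human lines, so sequencing covers them deeply. RBFOX2 is a splicing regulator that recognizes UGCAUG, mostly in introns near alternative exons. PKM encodes pyruvate kinase M, the last enzyme of glycolysis, and carries a pair of mutually exclusive exons that give the M1 and M2 isoforms. In INSCRIBE the antibody brings the deaminase to RNA that lies near the protein, and the edited cytosines are read as C-to-T changes in cDNA.

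The sequences below show the positions on which the question of repeated editing turns and the UGCAUG copies nearest to an edited base. They were read from the hg38 genome on the strand of the gene, 5′ to 3′, as DNA letters. In the first 5, which are 29 bases long, the capital is the edited cytosine. The GPI and GAPDH positions were the only ones called in 2 of the 3 RBFOX2 libraries of an input, the PGK1 and PKM intron positions were called at both inputs, and the PKM 3′UTR position was called in an RBFOX2 and a Buffer-only library at 100 pg.
GPI 3′UTR, exon 18, chr19:34402037-34402065, plus strand: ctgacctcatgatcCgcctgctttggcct
GAPDH coding exon 8, chr12:6537740-6537768, plus strand: ctcactggcatggcCttccgtgtccccac
PGK1 3′UTR, exon 11, chrX:78126427-78126455, plus strand: tactttatggcagaCattgtgctagtgct
PKM intron 8, chr15:72203888-72203916, minus strand: aactcagtggctttCtcatgactgtttta
PKM 3′UTR, exon 11, chr15:72199345-72199373, minus strand: agggtgacagcttcCtttcctgtgtgtac
In the next 3, which are 30 bases long, the capitals mark a copy of the RBFOX2 motif UGCAUG, with T for U.
PKM intron 8, chr15:72203832-72203861, minus strand: attaaatatatcTGCATGcttccacaggca
GPI 3′UTR, chr19:34401771-34401800, plus strand: tgggtccgcagaTGCATGccagtacaccca
LDHA 3′UTR, chr11:18407331-18407360, plus strand: aggtggaggttgTGCATGttgtccttttta
In the PKM intron, the lower-case c directly before the motif was itself the edited base, called at position 72203850 in RBFOX2 replicate 2 at 1 ng with 1 edited read of 12 (8.33%, 95% Wilson interval 1.49 to 35.4%).

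The libraries listed between 18650 and 42589 sites each, with a median coverage of 19 to 23 reads at a site. Wilson intervals cover counting error only, since PCR copies are not independent molecules. Sites on gene strands numbered 30256 to 31948 in RBFOX2 libraries, 27211 in the Enzyme-only library and 11057 to 12274 in Buffer-only libraries at 1 ng. At 100 pg they numbered 16824 to 17092 in RBFOX2 libraries, 14968 in the Enzyme-only library and 9728 to 10949 in Buffer-only libraries. The lists hold called sites only, so a gene without a site has no coverage on record, and no upper limit can be set on its editing. Site lists measure edits rather than expression: 2 of 5 kidney lineage genes (EMX2 and SIX2), 0 of 5 mature kidney genes and 2 of 10 genes of other cell types carried any site.

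PKM held the most calls of the 10 genes, 69 at 66 positions, with at least 1 in all 14 libraries. At 1 ng it had 9, 6 and 7 sites in RBFOX2 libraries, 6 in the Enzyme-only library and 3, 2 and 1 in Buffer-only libraries. The RBFOX2 libraries were all above the Buffer-only libraries, with means of 7.33 ± 1.53 and 2.00 ± 1.00 sites (SD, n = 3 each; exact permutation test, two-sided, p = 0.1, the smallest p that 3 against 3 allows). Among all genes with a site in these 6 libraries, 16.2% showed the same separation, and the members that did were PKM, LDHA and PGAM1, or 3 of 10. This share and the later ones over genes with a site or cluster include genes with too few to separate. They are not matched to the members in site number, and whether members differ from genes of like site number was not tested. Once sites were expressed per 10000 gene-strand sites of the library, PKM stood at 2.97, 1.90 and 2.19 in RBFOX2 libraries, 2.20 in the Enzyme-only library and 2.71, 1.63 and 0.818 in Buffer-only libraries. On that scale the PKM groups overlapped (exact permutation test, two-sided, n = 3 each, p = 0.4), and the separated members were LDHA and PGAM1 above (7.14% of genes) and LDHB below (5.19% of genes, against 0.354% and no member unscaled). Member means were then higher in RBFOX2 libraries for 5 genes and lower for 5, against 9 and 0 unscaled. LDHA and PGAM1 had no site in a Buffer-only library at 1 ng, so scaling could not undo their separation.

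At 100 pg, PKM had 8, 7 and 6 sites in RBFOX2 libraries, 3 in the Enzyme-only library and 7, 1 and 3 in Buffer-only libraries. The groups overlapped through Buffer-only replicate 1, with means of 7.00 ± 1.00 and 3.67 ± 3.06 sites (SD, n = 3 each; exact permutation test, two-sided, p = 0.3). The edited reads at these sites did not overlap: they numbered 40, 41 and 38 in RBFOX2 libraries, 19 in the Enzyme-only library and 20, 7 and 15 in Buffer-only libraries (exact permutation test, two-sided, n = 3 each, p = 0.1), which was the case in 4 of 10 members and 6.93% of genes. Pooled over its sites, the edited share of PKM reads was 2.45% ± 0.213 in RBFOX2 libraries and 1.53% ± 0.528 in Buffer-only libraries (SD, n = 3 each; exact permutation test, two-sided, p = 0.1). PKM was the only member with a site in all 6 of these libraries, and 12.3% of all such genes had every RBFOX2 library above every Buffer-only library in pooled edit share. At 1 ng 4 members had a site in all 6 libraries and 0 were separated in pooled edit share, beside 8.29% of genes.

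**Figure D1:**
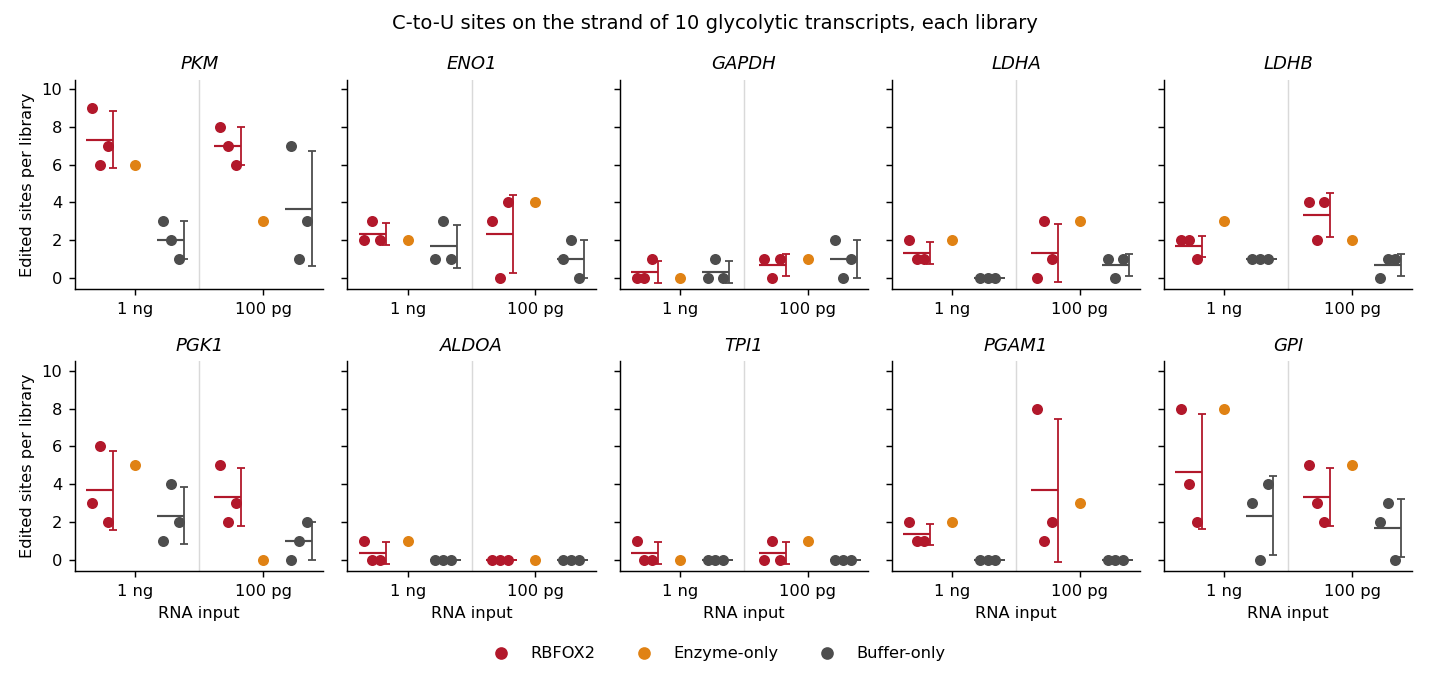
Number of edited sites per library (vertical axis) in each of the 10 genes at 1 ng and 100 pg of RNA. Points are libraries, horizontal lines are means and bars are SD over 3 replicates; PKM at 1 ng shows 9, 6 and 7 sites in RBFOX2 libraries above 3, 2 and 1 in Buffer-only libraries, while GAPDH, ALDOA and TPI1 stay at 0 to 2.

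In RBFOX2 libraries the PKM sites were all intronic at 1 ng and both intronic and exonic at 100 pg. At 1 ng the 3 RBFOX2 libraries had 9, 6 and 7 intronic sites and no site in an exon of the MANE Select transcript, the reference isoform of the annotation. Exonic sites at 1 ng numbered 2 in the Enzyme-only library and 0, 0 and 1 in Buffer-only libraries. At 100 pg each RBFOX2 library had 3 exonic sites, against 2 in the Enzyme-only library and 4, 1 and 2 in Buffer-only libraries. Intronic sites at 100 pg numbered 5, 4 and 3 in RBFOX2 libraries, 1 in the Enzyme-only library and 3, 0 and 1 in Buffer-only libraries. At that input the 3′UTR held 6 of the RBFOX2 calls, 1 Enzyme-only call and 3 Buffer-only calls, and at 1 ng it held none in any group. In all, 48 of the 69 PKM calls (69.6%) were intronic, against 34.9% over the 10 genes together.

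Of the 48 intronic PKM calls, 38 fell in intron 8 (chr15:72202621-72206727 in hg38, minus strand), which makes up 13.8% of the intronic bases of the transcript. This intron was singled out after its values were seen. It holds the exon that the annotation places in 5 other coding transcripts of PKM (chr15:72203022-72203188, 167 bases, the same length as the exon after it), which is the M1 exon, while the MANE transcript uses the M2 exon. At 1 ng, intron 8 had 8, 6 and 6 sites in RBFOX2 libraries, 3 in the Enzyme-only library and 1, 2 and 0 in Buffer-only libraries. The means were 6.67 ± 1.15 in RBFOX2 libraries and 1.00 ± 1.00 in Buffer-only libraries, with no overlap (SD, n = 3 each; exact permutation test, two-sided, p = 0.1). Per 10000 gene-strand sites they were 2.14 ± 0.436 and 0.845 ± 0.816 in the same order of groups, still without overlap. Among all introns with at least 6 sites in these 6 libraries, 23.1% were separated in this way unscaled and 13% after scaling, so the separation itself was shared with many introns. By number, 48 of 9666 introns with an RBFOX2 site at 1 ng had 20 or more such sites, the total of PKM intron 8.

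At 100 pg, intron 8 had 3, 4 and 2 sites in RBFOX2 libraries, 1 in the Enzyme-only library and 2, 0 and 0 in Buffer-only libraries, and RBFOX2 replicate 3 equalled Buffer-only replicate 1 (exact permutation test, two-sided, n = 3 each, p = 0.2; 4.32% of introns were separated at this input, and 3.24% after scaling). All 38 calls lay in the 3539 bases between exon 8 and the M1 exon, none in the M1 exon and none in the 401 bases between it and the M2 exon. The 6 UGCAUG copies of the intron, searched on the strand of the gene, also all lay before the M1 exon, yet 1 edited base was within 50 nt of one of them. The calls were thin: coverage ran from 5 to 102 reads with a median of 22.5, and 29 of 38 rested on 1 edited read. At 1 ng no RBFOX2 call in the intron had over 2 edited reads, and at 100 pg the highest was 12 of 22 reads (54.5%, 95% Wilson interval 34.7 to 73.1%) in RBFOX2 replicate 1. One position, shown above, was called in 2 libraries, at 7 of 28 reads in RBFOX2 replicate 2 at 100 pg and 1 of 23 reads in the Enzyme-only library at 1 ng.

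**Figure D2:**
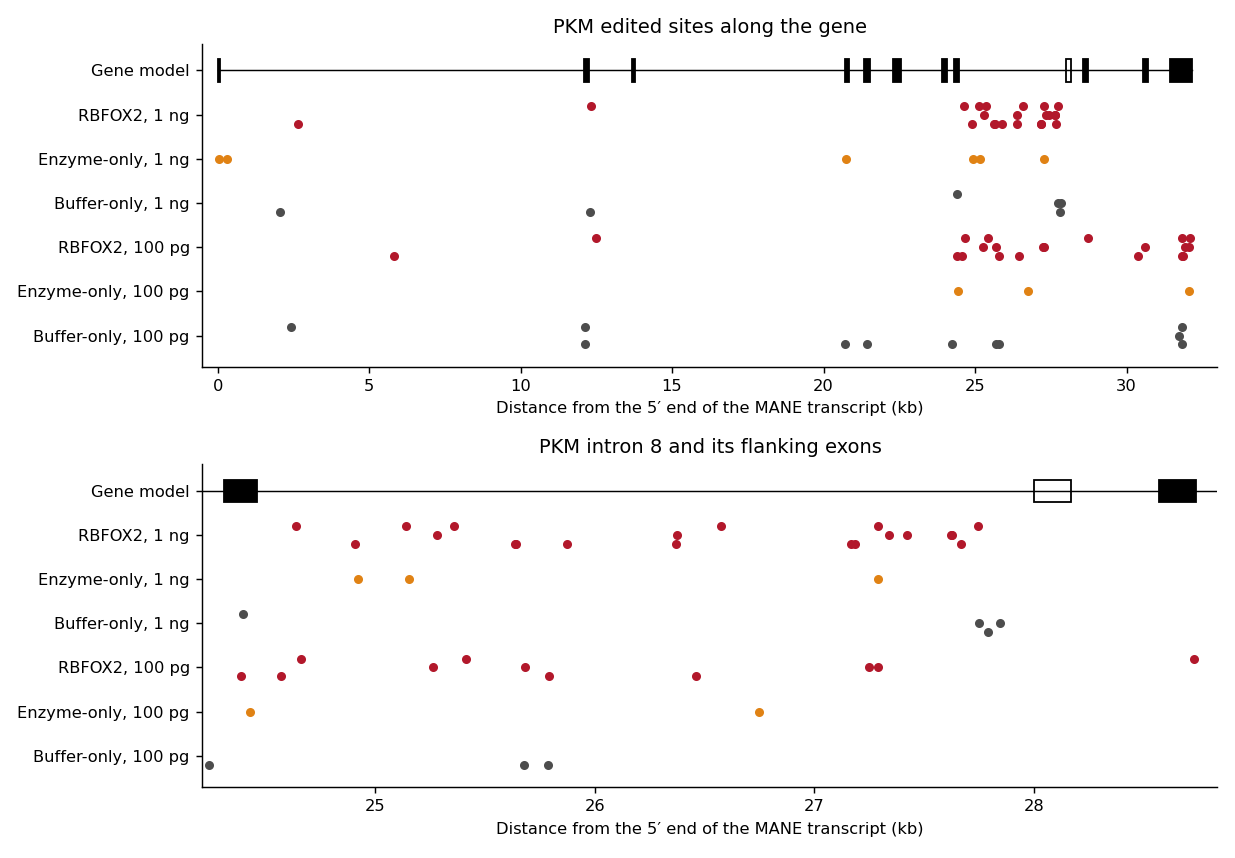
Edited sites of PKM by distance from the 5′ end of the MANE transcript (horizontal axis, kb) in the 6 groups, over the whole gene (top) and over intron 8 with its flanking exons (bottom). Filled boxes are MANE exons, the open box is the M1 exon, and points are sites with replicates at slightly different heights; 38 of 48 intronic calls sit between exon 8 and the M1 exon.

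Among the enzymes of the upper and middle pathway, GPI had 49 calls, and ALDOA, TPI1 and GAPDH had 2, 3 and 8. GPI, which interconverts glucose-6-phosphate and fructose-6-phosphate, had 8, 4 and 2 sites in RBFOX2 libraries at 1 ng, 8 in the Enzyme-only library and 3, 0 and 4 in Buffer-only libraries. At 100 pg it had 5, 3 and 2 in RBFOX2 libraries, 5 in the Enzyme-only library and 2, 3 and 0 in Buffer-only libraries. The groups overlapped at both inputs, and the Enzyme-only library matched the highest RBFOX2 library each time. GPI calls were exonic in 45 of 49 cases, 27 of them in the 3′UTR of exon 18, but 37 calls also lay in an overlapping gene on the same strand (ENSG00000266953), so their source is uncertain.

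ALDOA, the aldolase that splits fructose-1,6-bisphosphate, had 2 calls in 14 libraries and TPI1, triosephosphate isomerase, had 3. Both ALDOA calls also lay in the span of another annotated gene. None of the 5 was in a Buffer-only library. The 7 calls of the ALDOA span given to another gene did include such libraries, with 1 in Buffer-only replicate 2 at 1 ng. At 100 pg they were 1 and 2 in Buffer-only replicates 2 and 3, 1 each in RBFOX2 replicates 1 and 3, and 1 in the Enzyme-only library. GAPDH, which makes 1,3-bisphosphoglycerate, had 8 calls in all: 0, 0 and 1 in RBFOX2 libraries, 0 in the Enzyme-only library and 0, 1 and 0 in Buffer-only libraries at 1 ng, and 1, 0 and 1 in RBFOX2 libraries, 1 in the Enzyme-only library and 2, 0 and 1 in Buffer-only libraries at 100 pg. The annotation names 65 pseudogenes after GAPDH, the most of any member, so the placing of its reads is uncertain.

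In the lower pathway, PGAM1, the phosphoglycerate mutase, was separated at both inputs. It had 2, 1 and 1 sites in RBFOX2 libraries, 2 in the Enzyme-only library and none in the 3 Buffer-only libraries at 1 ng. At 100 pg it had 8, 1 and 2 in RBFOX2 libraries, 3 in the Enzyme-only library and again none in Buffer-only libraries. RBFOX2 replicate 1 supplied most of the 100 pg difference: the mean difference of 3.67 sites was 1.5 without it. The exact permutation test gave p = 0.1 at each input (two-sided, n = 3 each). PGAM1 has 13 pseudogenes named after it, and 11 of its 20 calls lay in the 3′UTR.

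PGK1, the phosphoglycerate kinase, had 3, 6 and 2 sites in RBFOX2 libraries, 5 in the Enzyme-only library and 1, 4 and 2 in Buffer-only libraries at 1 ng. At 100 pg it had 5, 2 and 3 in RBFOX2 libraries, 0 in the Enzyme-only library and 0, 1 and 2 in Buffer-only libraries. The groups overlapped or touched at both inputs, but the edited reads at 100 pg did not overlap (20 ± 11.4 in RBFOX2 libraries and 2.00 ± 2.00 in Buffer-only libraries; SD, n = 3 each; exact permutation test, two-sided, p = 0.1). Its 3′UTR position shown above had the strongest editing of any repeated position, 16 of 55 reads in RBFOX2 replicate 3 at 100 pg (29.1%, 95% Wilson interval 18.8 to 42.1%) and 3 of 27 reads in RBFOX2 replicate 1 at 1 ng (11.1%, 3.85 to 28.1%). ENO1, the enolase, had 2, 3 and 2 sites in RBFOX2 libraries, 2 in the Enzyme-only library and 1, 3 and 1 in Buffer-only libraries at 1 ng, and 3, 0 and 4 in RBFOX2 libraries, 4 in the Enzyme-only library and 1, 2 and 0 in Buffer-only libraries at 100 pg. Its groups overlapped, and 16 of its 28 calls were intronic.

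The lactate dehydrogenases differed in the input at which their groups parted. LDHA, the M subunit, had 2, 1 and 1 sites in RBFOX2 libraries, 2 in the Enzyme-only library and none in Buffer-only libraries at 1 ng (exact permutation test, two-sided, n = 3 each, p = 0.1). At 100 pg it had 0, 3 and 1 in RBFOX2 libraries, 3 in the Enzyme-only library and 1, 0 and 1 in Buffer-only libraries. LDHB, the H subunit, had 4, 2 and 4 sites in RBFOX2 libraries, 2 in the Enzyme-only library and 0, 1 and 1 in Buffer-only libraries at 100 pg (exact permutation test, two-sided, n = 3 each, p = 0.1). At that input LDHB and PGAM1 were the 2 of 10 members with separated groups, beside 4.62% of all genes with a site, and both stayed separated per 10000 gene-strand sites (3.78% of genes). PGAM1 had no Buffer-only site there, so scaling could not undo its separation. No member had every RBFOX2 library below every Buffer-only library at that input on either scale, beside 0.667% of genes unscaled and 3.45% scaled. At 1 ng LDHB had 2, 2 and 1 in RBFOX2 libraries, 3 in the Enzyme-only library and 1 in each Buffer-only library, and per 10000 gene-strand sites every RBFOX2 library was below every Buffer-only library. In 24 of its 25 calls LDHB shares the strand with an overlapping annotated gene (ENSG00000285854). Whether the difference between inputs exceeds the spread was not tested for LDHA or LDHB, because too few sites passed the filter of the fit below.

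Across all genes, sites per gene were compared with edgeR's quasi-likelihood test, which scales each library by its own total. At 1 ng, 3 of the 10 members had enough sites to be tested. PKM had a log2 fold change, RBFOX2 over Buffer-only, of 0.53 ± 0.64 (SE; adjusted p = 0.72, edgeR with Benjamini-Hochberg adjustment over 2253 genes), PGK1 had −0.65 ± 0.73 (adjusted p = 0.698) and GPI −0.31 ± 0.81 (adjusted p = 0.886). None passed, where 1.33% of tested genes were higher and 0.488% lower, and 0 of the 3 had an unadjusted p under 0.05; the median log2 fold change of all tested genes was 0.24. At 100 pg PKM alone was tested, at 0.11 ± 0.64 (SE; edgeR adjusted p = 0.972), beside 0.13% of 770 genes called higher and 0% lower. With no scaling of the libraries PKM reached 1.81 at 1 ng (edgeR adjusted p = 0.0266), a setting in which the median of all genes moved to 1.51 and the calls to 922 higher and 5 lower, against 30 higher and 11 lower with scaling.

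The antibody effect on PKM at 1 ng and at 100 pg differed by 0.24 ± 0.97 on the log2 scale (SE; edgeR interaction, adjusted p = 0.993), and that on GPI by −0.66 ± 1.21 (adjusted p = 0.993). Of 1976 genes 0 were called in either direction at that interaction, where 99 had an unadjusted p under 0.05. Between RBFOX2 libraries of the 2 inputs, the 1 ng over 100 pg change was −0.79 ± 0.57 for PKM (SE; edgeR adjusted p = 0.672) and −0.37 ± 0.74 for GPI (adjusted p = 0.906), beside 0.101% of genes called higher and 0.253% lower.

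Exonic sites of these genes had a higher median coverage than those of all genes in every group, and intronic sites did so in all groups but the Enzyme-only library at 100 pg. Deep coverage was part of how the genes were chosen, so these comparisons describe the choice. The median coverage of exonic member sites was 66 reads in RBFOX2 libraries, 67 in the Enzyme-only library and 89 in Buffer-only libraries at 1 ng, beside 31, 32 and 31 over all genes with a MANE transcript. At 100 pg it was 328 in RBFOX2 libraries, 450 in the Enzyme-only library and 162 in Buffer-only libraries, beside 43, 43 and 34. Intronic member sites had medians of 16 reads in RBFOX2 libraries, 14 in the Enzyme-only library and 16 in Buffer-only libraries at 1 ng, beside 9 in each group over all genes. At 100 pg the intronic medians were 18, 11 and 18 reads for the members, in that order of groups, beside 13, 13 and 12. Exonic coverage at called sites, both inputs pooled, differed widely among members. TPI1 and GAPDH had medians of 1374 and 1273 reads (3 and 6 calls), LDHB 755 (14 calls), ALDOA 440 (1 call) and ENO1 348 (12 calls). LDHA had 342 (14 calls), PKM 328 (21 calls) and PGAM1 263 (17 calls). PGK1 and GPI had 65 and 54 (31 and 45 calls) and lay at the 87.5th and 83rd percentile of genes. The share of calls from each input differed among genes, so these medians mix gene and input.

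Deep coverage raises the number of edited reads that a site needs to be listed. Every deposited site score equalled the upper tail, above an error rate of 1%, of a beta distribution set by the edited and unedited reads (largest difference 5.0e-10), and sites were kept above 0.5. One edited read was thus enough up to 69 reads of coverage, 2 were needed from 70 reads, 6 at 500 reads, 11 at 1000 and 16 at 1500. As a share of reads the minimum was lower at deep sites. It was 20% at 5 reads, 5% at 20, 1.45% at 69, 2.86% at 70, 1.2% at 500 and 1.07% at 1500. At 1 ng, 14 of the 35 exonic RBFOX2 calls in the members had more than 69 reads of coverage, and none of the 35 intronic ones did. At 100 pg, 42 of the 57 exonic RBFOX2 calls did, and 14 of 18 in the Enzyme-only library and 19 of 23 in Buffer-only libraries.

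At 100 pg the calls stood further above that minimum in libraries that had received the enzyme. Of the exonic member calls, 12 of 57 (21.1%) were at the fewest edited reads allowed in RBFOX2 libraries, 2 of 18 (11.1%) in the Enzyme-only library and 12 of 23 (52.2%) in Buffer-only libraries. Over all genes with a MANE transcript the shares were 40.3%, 44.2% and 66.4%. At 1 ng they were 60% in RBFOX2 libraries, 70.6% in the Enzyme-only library and 64.3% in Buffer-only libraries for the members, beside 62.4%, 63% and 73.2% for all genes. The median edited share of exonic member sites was 2% in RBFOX2 and 1.92% in Buffer-only libraries at 1 ng and 2.05% and 1.85% at 100 pg. Over all genes with a MANE transcript it was 4.55% and 4.17% at 1 ng and 5.61% and 4.35% at 100 pg. Deep sites can be listed at smaller shares, so these medians do not compare how strongly the genes were edited.

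**Figure D3:**
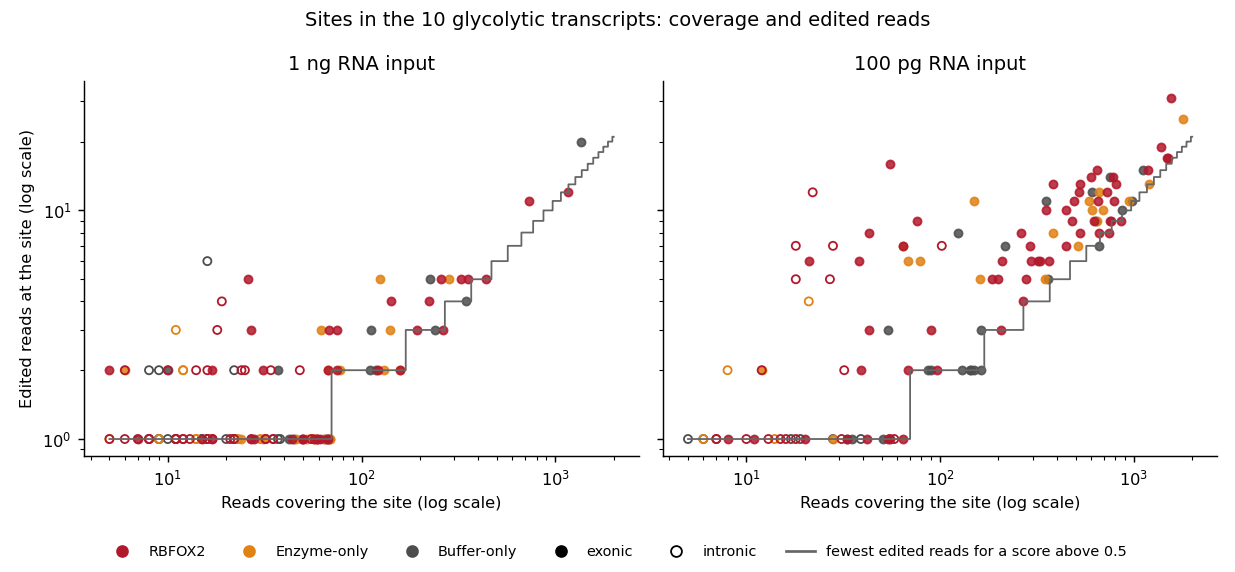
Edited reads (vertical, log scale) against reads covering the site (horizontal, log scale) for the 255 member calls, at 1 ng (left) and 100 pg (right). Filled points are exonic or outside the MANE transcript, open points are intronic, and the stepped line is the fewest edited reads that give a score above 0.5; at 100 pg the exonic RBFOX2 calls have a median coverage of 328 reads, against 66 at 1 ng.

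The deposited mean depth of a cluster gave another picture of the introns. Member clusters in exons had a median mean depth of 342 and a median of 155 reads per cytosine (n = 129 clusters), a median ratio of 1.98 that was the same over all genes. Member clusters in introns had a median mean depth of 454 but 15.7 reads per cytosine (n = 79), a ratio of 27.6, where intronic clusters of all genes had a median mean depth of 41.6, 10.3 reads per cytosine and a ratio of 3.28. PKM intronic clusters had a median mean depth of 407 and 18 reads per cytosine (n = 41). LDHB, with the deepest intronic clusters among members that had more than 1, had 1236 and 13.2 reads per cytosine (n = 11). By mean depth PKM ranked at the 96.2nd percentile of genes and by reads per cytosine at the 73.9th. The sources used here do not say which reads enter the mean depth.

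**Figure D4:**
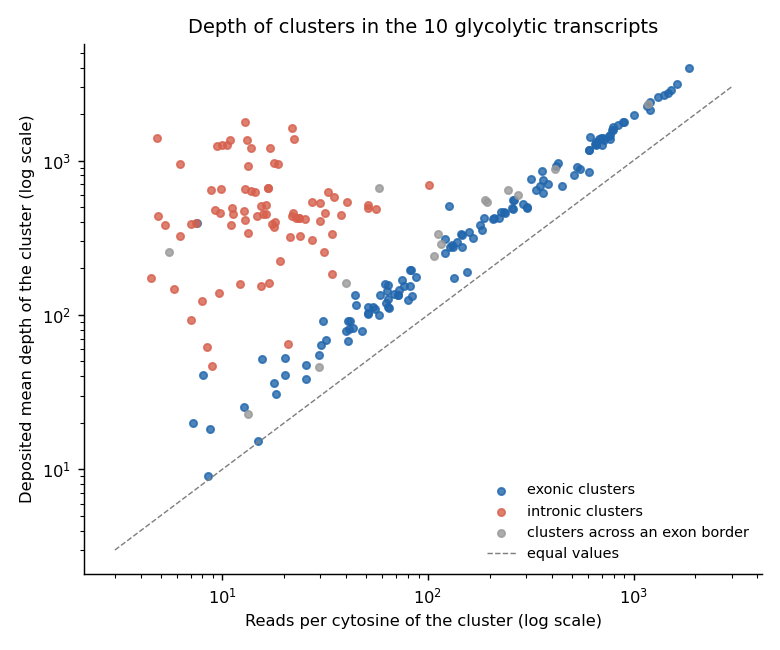
Deposited mean depth (vertical, log scale) against reads per cytosine (horizontal, log scale) for the 222 member clusters, with exonic, intronic and border clusters in separate colours and a dashed line at equal values. Exonic clusters run parallel to the line at a median ratio of 1.98, while the 79 intronic clusters lie far above it at a median ratio of 27.6.

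Few member positions were called in more than 1 replicate, as was the case for all genes. Of 69 member positions edited in RBFOX2 libraries at 1 ng, 1 (1.45%) was called in 2 replicates and 0 in all 3, beside 2.97% of positions of all genes in 2 or 3. That position, in the GPI 3′UTR, had 1 edited read of 67 in replicate 2 and 1 of 57 in replicate 3. At 100 pg 1 of 75 positions (1.33%) was called in 2 replicates, beside 1.68% of all genes. This was GAPDH position 6537754 with 31 of 1554 reads in replicate 1 (1.99%, 95% Wilson interval 1.41 to 2.82%) and 17 of 1474 in replicate 3 (1.15%, 0.721 to 1.84%), and Buffer-only replicate 2 at 1 ng had 20 of 1356 there (1.47%), between the other shares. Restricted to exons, 1 of 34 member positions at 1 ng (2.94%) and 1 of 56 at 100 pg (1.79%) were repeated in RBFOX2 libraries. The exonic shares were 3.34% and 1.9% over all genes. In 1808 other genes of the same range of exonic coverage they were 5.32% and 3.44%. The genes were chosen with few reproducible clusters already known, so these shares describe the choice and test nothing. Of the 11 member positions called in more than 1 library, 7 included a Buffer-only library, among them both PKM 3′UTR positions, at which the edited shares were 1.80% in an RBFOX2 library and 1.97% in a Buffer-only library, and 1.21% and 1.16%.

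No confident edit cluster of these low-input libraries lay in any of the 10 genes. The study presents PKM as an example RBFOX2 target with eCLIP peaks, beside INSCRIBE edit clusters from HEK293T experiments outside these 14 libraries. The genes were chosen with few reproducible clusters already known, so the shares beside them here are description and not a test. The 6 deposited lists of clusters shared by the 3 replicates held 907 clusters for RBFOX2 at 1 ng (776 after removal of Buffer-only clusters), 267 (214) for RBFOX2 at 100 pg, and 250 and 102 for Buffer-only at 1 ng and 100 pg, and 0 of each were on the strand of a member. Yet 7 members at 1 ng and 5 at 100 pg had a cluster in every RBFOX2 library; of all genes with as much, 13.6% and 7.9% had a confident cluster. PKM had at least 5 clusters in every RBFOX2 library at both inputs (6, 5 and 7 at 1 ng, and 6, 5 and 6 at 100 pg), a group of genes of which 37.6% at 1 ng and 24.7% at 100 pg had a confident cluster. Only 2 of 59 member clusters in RBFOX2 libraries at 1 ng overlapped a cluster of another replicate (3.39%, beside 18.4% of all genes), and 11 of 60 at 100 pg did (18.3%, beside 10%). None overlapped both other replicates. In number of clusters, 3 of 10 members were separated at 1 ng (14.3% of genes) and 1 at 100 pg (3.71%).

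Edited cytosines followed an A or U, the context that APOBEC1 prefers, in 49 of 70 member calls (70%) in RBFOX2 libraries, 16 of 29 (55.2%) in the Enzyme-only library and 14 of 29 (48.3%) in Buffer-only libraries at 1 ng. At 100 pg the shares were 68.4%, 63.6% and 51.7% over 76, 22 and 29 calls. Over all genes with a MANE transcript they were 77.8%, 73.5% and 47.6% at 1 ng. The 100 pg values for all genes were 66.2%, 60.6% and 47.1%, with groups in the same order. In PKM intron 8, 16 of 20 RBFOX2 calls, 1 of 3 Enzyme-only calls and 0 of 3 Buffer-only calls at 1 ng followed A or U, but at 100 pg 6 of 9 RBFOX2 calls, 1 of 1 Enzyme-only call and 2 of 2 Buffer-only calls did, so the order of groups was not the same at the 2 inputs.

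UGCAUG, searched on the strand of the gene, occurs 3 times in the exons of the 10 MANE transcripts (2 in GPI, 1 in LDHA) and 48 times in their introns, 13 of them in PKM. Member calls within 50 nt of the centre of a copy numbered 4 of 70 in RBFOX2 libraries (5.71%), 1 of 29 in the Enzyme-only library and 1 of 29 in Buffer-only libraries at 1 ng, and 0 of 76, 1 of 22 and 1 of 29 at 100 pg. Over all genes with a MANE transcript 6.17% of RBFOX2, 2.95% of Enzyme-only and 2.5% of Buffer-only calls at 1 ng were that near, and 4.71%, 2.86% and 2.61% at 100 pg. The GPI 3′UTR copy shown above had 3 edited positions within 50 nt, 1 in an RBFOX2 library, 1 in the Enzyme-only and a Buffer-only library at 1 ng, and 1 in a Buffer-only library at 100 pg. The LDHA copy had 1, in the Enzyme-only library at 100 pg.

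Sites on the opposite strand served as a background within the gene. PKM had 5, 5 and 4 of them in RBFOX2 libraries, 1 in the Enzyme-only library and 3, 2 and 2 in Buffer-only libraries at 1 ng, again without overlap (exact permutation test, two-sided, n = 3 each, p = 0.1), beside 3.19% of genes. Per 10000 opposite-strand sites PKM stood at 3.75, 3.48 and 2.79 in RBFOX2 libraries, 0.728 in the Enzyme-only library and 2.77, 1.68 and 1.69 in Buffer-only libraries. These opposite-strand groups did not overlap, but only by 2.79 in RBFOX2 replicate 3 against 2.77 in Buffer-only replicate 1. The share of all genes separated on this scale was not computed. At 100 pg it had 5, 2 and 3 in RBFOX2 libraries, 5 in the Enzyme-only library and 8, 6 and 5 in Buffer-only libraries, and no member was separated upwards (1.71% of genes). Every Buffer-only library had at least as many opposite-strand as gene-strand PKM sites, and no other member had over 4 opposite-strand sites in a library. The sources do not state that the low-input library kit keeps the strand, and the part of this in the PKM counts was not tested. Of 104 annotated pseudogenes named after a member, 6 held any site, with 11 calls over the 14 libraries.

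Other genes of glucose and pyruvate metabolism were taken from a list of 30, of which 26 had a site; the mean was higher in RBFOX2 than in Buffer-only libraries for 20 and lower for 4 at 1 ng, and higher for 19 and lower for 4 at 100 pg, without scaling. Per 10000 gene-strand sites it was higher for 13 and lower for 12 at 1 ng, and higher for 16 and lower for 8 at 100 pg. Unscaled groups were separated upwards in 6 genes at 1 ng (16.2% of all genes) and in PDHA1, TIGAR, MPC1 and MPC2 at 100 pg (4.62%). After scaling, PFKP and PDHB at 1 ng (7.14% of all genes) and the same 4 genes at 100 pg (3.78%) were separated upwards. PFKL, the liver-type phosphofructokinase, was separated downwards at 1 ng on both scales (0.354% of genes unscaled and 5.19% scaled). It had 0 sites in each RBFOX2 library, 0 in the Enzyme-only library and 2, 1 and 1 in Buffer-only libraries. PDK3 was separated downwards at 100 pg after scaling (3.45% of genes). These genes were named after their values were seen. In PFKP and PFKL at 1 ng and in TIGAR, MPC1 and MPC2 at 100 pg the lower group had no site. Scaling could not undo the separation of those genes. With edgeR, 3 of the 30 could be tested at 1 ng and 1 at 100 pg, of which 0 were called. The most sites were in SLC16A1, the lactate and pyruvate transporter MCT1 (64 calls), DLAT, the E2 subunit of pyruvate dehydrogenase (50), and PDHA1, its E1 alpha subunit (36). SLC16A1 had 9, 8 and 9 sites in RBFOX2 libraries, 2 in the Enzyme-only library and 3, 2 and 2 in Buffer-only libraries at 1 ng, with an edgeR log2 fold change of 0.55 ± 0.57 (SE; adjusted p = 0.672). DLAT had 0.56 ± 0.75 (edgeR adjusted p = 0.752) and PDHA1 0.95 ± 0.87 (edgeR adjusted p = 0.615) at 1 ng.

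The genes whose scaled site numbers followed PKM most closely over the 14 libraries, among 397 others with a mean of at least 5 sites, were ARL2BP (Pearson's r = 0.65), SHPRH (r = 0.61) and CALM2 (r = 0.61), on log2 of sites per 10000 gene-strand sites plus 1. The libraries share depth and treatment, so these values are descriptive.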

How the data were processed

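RBFOX2-INSCRIBE, Enzyme-only and Buffer-only libraries were made from 1 ng or 100 pg of total RNA with the NEBNext Single Cell/Low Input kit. Per the labels and the study's methods, the authors trimmed reads with cutadapt, removed repeats and mapped to hg38 with STAR (2.4.0 in the processing notes), and called sites with SAILOR and clusters with FLARE. The deposited site lists give edited and total reads and a SAILOR score, and keep sites scored above 0.5 and edited in less than 0.8 of reads. The deposited cluster tables give counts of edited and covered bases, an edit fraction, a mean depth (a coverage signal) and a FLARE score, and the authors intersected replicates into 6 pooled lists of confident clusters, whose signal column was not used.

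Sites were assigned on their strand to Gencode v44 genes, 1 gene per site (the one in which the site was exonic, where only one was), and to exons and introns of MANE Select transcripts. Sites per gene were tested with edgeR 4.0.16 (quasi-likelihood, TMM scaling, at least 3 sites in enough libraries and 5 in all, Benjamini-Hochberg threshold 0.05), with 1 fit per input and 1 fit of 12 libraries for contrasts between inputs. The fit was tested on simulated data. Single values were compared by exact permutation tests, Python 3.11.15 with SciPy 1.17.1, and not adjusted over the list. Wilson intervals are at 95%. The alternatives were scaling, filters, DESeq2 1.42.0, a replicate block, leaving out each library, stricter scores and coverage. Named genes were the members, the 3 other listed genes with most sites and the 3 most like PKM. Some other listed genes were also named for their separated groups, after their values were seen. The members and lists were chosen with earlier results of these data known.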

Additional observations from a re-analysis of the deposited data

How the results depend on the processing

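Sites per gene at 1 ng gave 41 calls (30 higher, 11 lower), and the number moved to 927 with no scaling, 0 with DESeq2 (237 genes at an unadjusted p under 0.05), 25 with the default edgeR filter, 92 without a filter, 0 with a SAILOR score of at least 0.9 (101 unadjusted) and 150 on edited reads. Leaving out 1 library gave 0 to 88 calls: 0 without Buffer-only replicate 1 or 2, 12 without Buffer-only replicate 3 and 88 without RBFOX2 replicate 1. At 100 pg the 1 call became 95 with no scaling, 0 with DESeq2 (54 unadjusted), 0 with the default filter (1 unadjusted), 0 with a score of at least 0.9 (49 unadjusted), 6 on edited reads, and 0 to 7 with a library left out. Between inputs the 7 RBFOX2 calls became 1 to 4. Of PKM, PGK1 and GPI, the members tested, PKM at 1 ng with no scaling (log2 fold change 1.81) was the one call under these settings.

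With a replicate block the 1 ng calls went to 0 (327 genes at an unadjusted p under 0.05) and the 100 pg call stayed at 1. For the contrast between inputs the block gave 6 calls in place of 7. Deviations of same-numbered libraries correlated at −0.0301 to 0.00456 between RBFOX2 and Buffer-only libraries of an input and at −0.0102 to 0.0516 between inputs within a treatment. None was over 0.1, so no pairing was assumed, and whether same-numbered libraries of the inputs came from the same RNA was not settled by the sources.

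The 1 ng PGK1 log2 fold change turned to 0.63 with no scaling and 0.05 on edited reads, and lay between −0.81 and 0.05 with a library left out. That of GPI turned to 0.96 with no scaling and 0.04 without a filter, and lay between −0.94 and 0.37. With a library left out, PKM lay between 0.30 and 1.12 at 1 ng and between −0.09 and 1.21 at 100 pg, and its difference between inputs between −0.56 and 0.71. Per 10000 gene-strand sites, the 1 ng difference turned to −0.643 for ENO1, −0.31 for LDHB, −0.761 for PGK1 and −0.483 for GPI, and in exons only that of PKM was −0.333. Separated groups went to 3 of the gene and input pairs in exons only, from 5. At a FLARE score of at least 0.99, clusters gave 1 separated pair in place of 4, and the 1 ng differences of LDHB and PGK1 were −0.333. Leaving out 1 library, differences in sites ran from 2 to 5 for PKM at 100 pg, from −0.833 to 0.167 for GAPDH and from −0.167 to 1.33 for LDHA at 100 pg. In clusters they ran from −0.167 to 1.00 for ENO1, −0.833 to 0.167 for GAPDH, −0.167 to 1.33 for LDHA and −0.167 to 1.33 for GPI at 100 pg, and from −0.333 to 1.5 for PGK1 and −0.5 to 1.67 for GPI at 1 ng. The PKM difference in edited share at 1 ng ran from −0.965 to 2.85 percentage points. The causes were not tested. The PKM intron 8 comparison was added after seeing the data and kept its direction, 5 to 6.17 sites at 1 ng and 1.83 to 3.00 at 100 pg with a library left out. Member calls in RBFOX2 libraries had a median of 1 edited read at 1 ng and 6 at 100 pg.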
